A study of Arabidopsis thaliana with 8 samples.

Results

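CONSTANS (CO) and its closest relatives, the CONSTANS-LIKE genes COL1 to COL5, were examined as places where CO itself is found on chromatin. The 6 genes were taken by locus identifier out of 27444 nuclear protein-coding genes. A peak was assigned to a gene when the distance from its summit to the gene was at most 3000 bp, summits inside counting as 0 bp. Peak strength played no part in this assignment, but the genes were chosen with earlier results of these data known. On that rule 8 of the 3306 peaks in overexpressing seedlings belonged to the family, 7 of them were kept in the filtered list, and 1 of the 380 peaks of the mutant control did so. A summit of the 35S:CO list lay as near to 19.3% of all protein-coding genes, and a co-10 summit to 0.619%.

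CO is a B-box zinc finger protein with a CCT domain that activates the florigen gene FT in long days, and it binds DNA through the CCT domain together with NF-Y subunits. CO protein accumulates in light at the end of a long day and is removed in darkness by the COP1 and SPA ubiquitin ligase. COL1 and COL2 are the nearest homologs of CO, COL3 is known as a positive regulator of photomorphogenesis, COL4 as a regulator of flowering time, and COL5 as a gene whose overexpression hastens flowering in short days.

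Chromatin was recovered with antibodies to CO and sequenced (ChIP-seq) from Arabidopsis thaliana seedlings at an age of 7 days under long-day light. Both genotypes, 35S:CO and co-10, contributed 2 immunoprecipitated samples and 2 inputs, 8 in all. The 35S:CO seedlings express CO from the constitutive viral 35S promoter, so their peaks describe CO at a level and in cells that the native gene does not set. The controls were CO mutants named co-10; neither the nature of the lesion nor the CO protein left in them is given in the sources used here. A CO transgene and the native CO locus share sequence, and a peak list cannot tell reads of one from reads of the other.

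Each genotype had 1 peak list, with the word "both" in its peak names, so the replicates were treated as pooled. The differences between the genotypes therefore have no replicate check and no test. The fold enrichment of a peak is the ratio of signal to background at its summit, as deposited by the authors. From that ratio and the deposited p-value, the pileup (the fragments stacked at the summit) and the background (the number the caller expected) were worked back. Intervals are exact Poisson 95% intervals of the pileup and cover counting error only. Nuclear peaks had a median background of 3.07 fragments in 35S:CO and 1.09 in co-10, so the mutant list was the shallower one as far as a background scaled by the caller shows depth.

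The CO gene carried the strongest family peak in both genotypes, and it was stronger in the mutant. The co-10 peak over CO (AT5G15840) ran from 5171197 to 5172836 on chromosome 5 (TAIR10), and 155 fragments (132 to 181) gave it a fold enrichment of 63.9. The 35S:CO peak at the same place ran from 5171186 to 5173112, and 108 fragments (88.6 to 130.0) gave it 15.3. The gene that is mutated in co-10 thus gave the highest deposited fold enrichment of any nuclear peak in either list. The highest nuclear value in 35S:CO was 62.3, inside the interval of the co-10 peak (54.3 to 74.7). The order of these peaks across the lists therefore cannot be read.

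The peaks of both genotypes at CO had nearly the same summit and low-coordinate edge. Their summits were 61 bp apart and their low-coordinate edges 11 bp apart, while the 35S:CO peak reached 276 bp farther at the other edge. The co-10 peak lay wholly within the 35S:CO peak and made up 85.1% of its length. They covered 56.1% of the annotated CO gene in co-10 and 65.0% in 35S:CO. In both genotypes the stretch of about the first 1000 bp at the low-coordinate end of the gene had no peak: the 35S:CO peak began 1024 bp into the gene and the co-10 peak 1035 bp into it. The co-10 summit was 4 bp inside AT5G15843, a protein-coding gene annotated over part of CO, and the 35S:CO summit was 57 bp outside it.

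The genotypes differed in opposite directions in the parts that make up the fold enrichment. Background at CO was 6.14 fragments in 35S:CO and 1.44 in co-10. The fold enrichment was 4.18 times as high in co-10 (3.25 to 5.40, counting error of the pileups alone), and the pileup 1.44 times as high (1.12 to 1.85). Read totals are unknown, so the pileups were also compared after scaling, by measures at places outside the family where the lists overlap that were chosen after the data were seen. With the 35S:CO pileup scaled by the median background ratio there, the co-10 pileup was 2.69 times as high (2.09 to 3.47). Scaled by the median pileup ratio there, it was 1.72 times as high (1.34 to 2.22). Scaled by the median background of all nuclear peaks of each list, it was 4.04 times as high (3.14 to 5.21). Every one of these measures was higher in co-10, and their size depended on how background and depth were treated. They all use the same pileups at CO and are not independent of each other.

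The CO peak also stood apart from other places where both lists had a peak. There were 46 such overlapping pairs outside the family with a background of at most 10 fragments in both lists. Across these pairs the ratio of co-10 to 35S:CO background had a median of 0.534 (quartiles 0.487 and 0.641, lowest 0.278), whereas at CO it was 0.235, below all 46. The same ratio for the pileup had a median of 0.833 (quartiles 0.673 and 1.08), and at CO it was 1.44, above 45 of the 46. For the fold enrichment the median ratio was 1.18 and the highest 2.33, against 4.18 at CO.

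Within each list the CO peak was also unusual. In co-10 its fold enrichment was 7.00 times that of the next nuclear peak, which was at 9.13. Its pileup of 155 was the highest of the 273 co-10 peaks with a background of at most 10, and the next was 32. It was the widest of those 273 at 1640 bp, with the next at 1194 bp. Among all 312 nuclear co-10 peaks, whatever their background, it ranked 24 by pileup and 5 by width. In 35S:CO the CO peak ranked 290 of 3306 by fold enrichment and 31 of 3287 nuclear peaks by width. Its background of 6.14 was higher than that of 99.5% of the nuclear 35S:CO peaks with a background of at most 10. Of the 302 nuclear 35S:CO peaks with a fold enrichment of at least 15, the CO peak was the 1 that the filtered list left out. Which sequence gave rise to the signal at CO in either genotype was not tested.

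**Figure D1:**
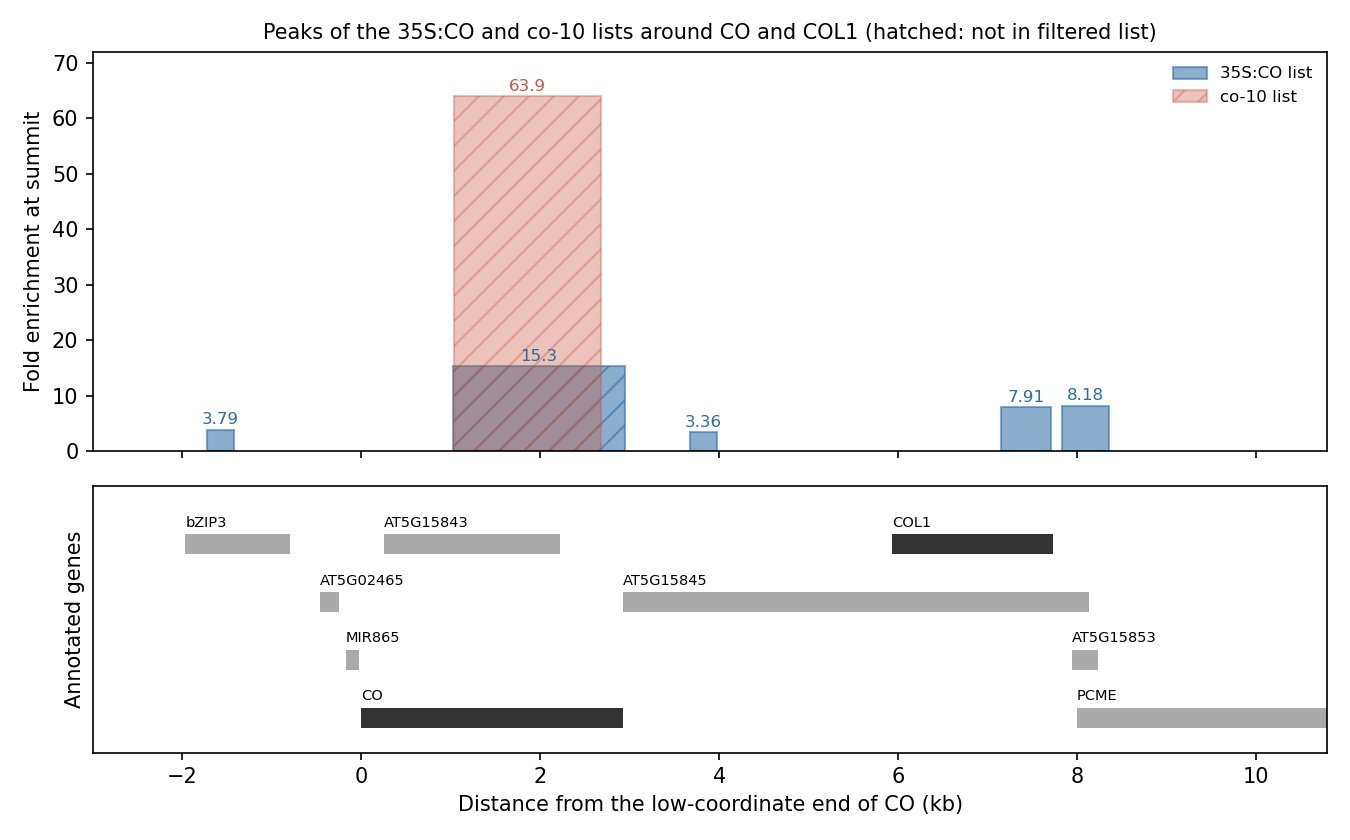
Peaks around CO and COL1, drawn as boxes over their length with height equal to the deposited fold enrichment at the summit (linear axis), against distance from the low-coordinate end of CO in kb. Annotated genes are below, CO and COL1 in black; strand is not shown. The co-10 peak at CO reaches 63.9 over nearly the same interval as the 35S:CO peak of 15.3, and the other 4 peaks of 35S:CO have no counterpart in co-10.

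The high background in 35S:CO was local to the CO gene. The other 4 peaks of 35S:CO in the CO and COL1 neighbourhood had backgrounds from 2.67 to 3.22 fragments, close to the list's median, and the background at CO was 2.11 times the median of these 4. The nearest of their summits was 1002 bp outside the gene. In co-10 no other peak lay in the neighbourhood, so the same comparison could not be made there. Against nuclear peaks of its own list with a background of at most 10, the co-10 background at CO was 1.37 times the median. It was higher than in 72.2% of them. The 35S:CO background at CO was 2.01 times the median of its own list by the same measure.

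CO and COL1 lie next to each other on chromosome 5 with 3005 bp between them, and the neighbourhood from 3000 bp before CO to 3000 bp after COL1 is 13736 bp long. It held 5 summits of the 35S:CO list, 4 of the filtered list and 1 of the co-10 list. Chromosomes 1 to 5 cut into windows of this length gave 8669 windows, of which 0.588% had 4 or more filtered summits, 26.5% had at least 1, and 2.33% had a co-10 summit. Filtered summits were thus denser around CO and COL1 than in most of the genome, as they were in 51 of those windows.

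COL1 (AT5G15850) had a pair of moderate peaks at its high-coordinate end and a weak one on the side of CO. The peak inside the gene, from 5177316 to 5177870, had 28 fragments against a background of 2.67 and a fold enrichment of 7.91 (5.35 to 11.3). Its summit was 286 bp from the high-coordinate end of COL1 and also inside the long non-coding RNA gene AT5G15845, which spans COL1. The neighbouring peak, from 5177996 to 5178513, had 29 fragments and a fold enrichment of 8.18 (5.57 to 11.6). Its summit lay 345 bp outside COL1, and inside PCME (AT5G15860), the small protein-coding gene AT5G15853 and AT5G15845 at the same time. The signal of neither peak can be assigned to COL1 alone. The intervals of the pair overlapped almost wholly, so their order cannot be read at this depth.

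The space between CO and COL1 held the weakest family peak. It ran from 5173837 to 5174133 and had 13 fragments against a background of 3.16, a fold enrichment of 3.36 (1.90 to 5.58). Its summit was 1002 bp outside CO and 2004 bp outside COL1, within the non-coding gene AT5G15845, and it counts for both genes. On the other side of CO a peak from 5168436 to 5168732 had 15 fragments and a fold enrichment of 3.79 (2.22 to 6.09). Its summit was 1645 bp outside CO and inside the neighbouring gene bZIP3 (AT5G15830), a basic leucine zipper gene. Both peaks had the smallest width in the list, 297 bp, as had 5.99% of the nuclear 35S:CO peaks. The peak inside CO is missing from the filtered list, so the filtered summits counted for CO all lay outside the gene.

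Outside the CO and COL1 neighbourhood the family had 3 peaks, at COL2, COL4 and COL5. COL2 (AT3G02380) had the strongest filtered peak of the family, on chromosome 3 from 488324 to 489296. It had 34 fragments against a background of 2.85, a fold enrichment of 9.09 (6.37 to 12.6). The summit lay inside COL2, 737 bp from its high-coordinate end and 50 bp outside AT3G02390, which overlaps the end of COL2. At 973 bp this peak was wider than 91.5% of the nuclear 35S:CO peaks and covered 40.6% of the gene.

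COL5 (AT5G57660) had a peak at its low-coordinate end, on chromosome 5 from 23355106 to 23355660. With 29 fragments against a background of 2.92, its fold enrichment was 7.66 (5.22 to 10.9). The summit lay 46 bp inside the gene, and the nearest other annotated gene, the non-coding AT5G08735, was 1247 bp from it. Its low-coordinate edge reached past the end of the gene, so that 324 bp of the peak lay within COL5, 19.6% of the gene's length.

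COL4 (AT5G24930) had a weak peak on chromosome 5 from 8588735 to 8589144. With 16 fragments against a background of 3.49, it had a fold enrichment of 3.79 (2.26 to 6.01). The summit was 529 bp outside the gene, and no other annotated gene lay within 1000 bp of it. COL3 (AT2G24790) had no summit of any list within 3000 bp. The nearest filtered summit was 6851 bp from COL3, inside TIC55-II, with a fold enrichment of 4.25. At the edge of the rule, the farthest summits counted were those 1645 bp from CO and 2004 bp from COL1, and the nearest not counted was the CO peak itself, 3652 bp from COL1.

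**Figure D2:**
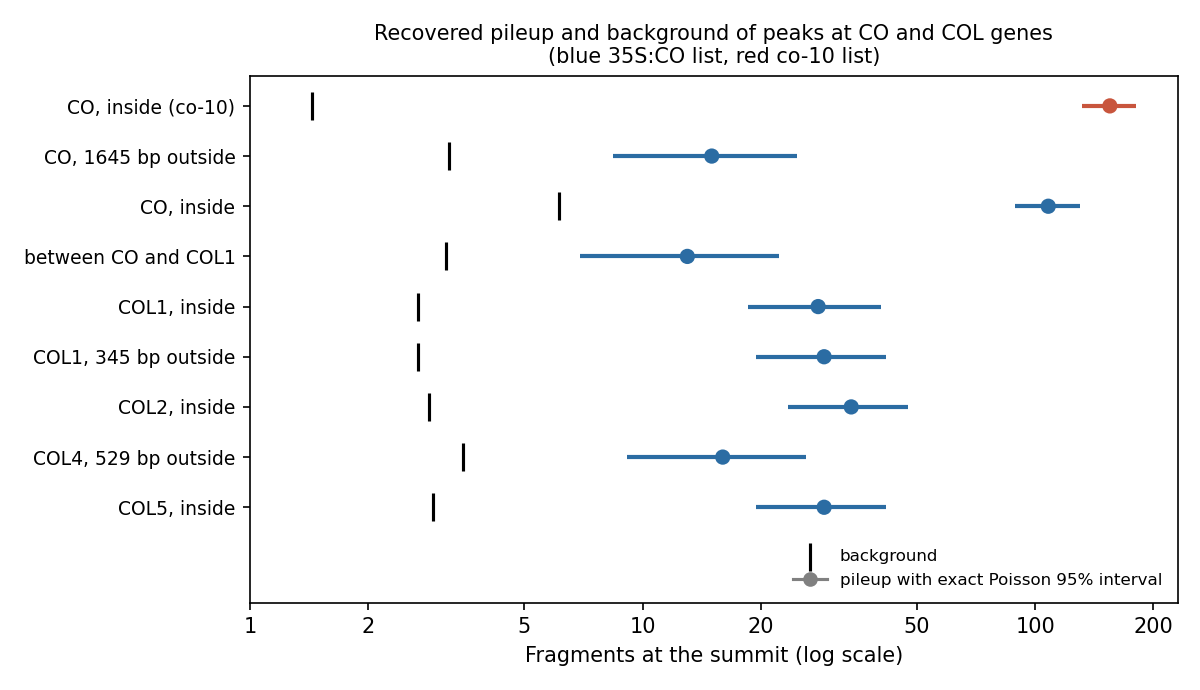
Recovered pileup (points, with exact Poisson 95% intervals as lines) and background (black ticks) at the summit of each peak at CO and the COL genes, in fragments on a log scale; blue is the 35S:CO list and red the co-10 list. The CO peak has 155 fragments over 1.44 in co-10 and 108 over 6.14 in 35S:CO, and the other peaks lie between 13 and 34 fragments.

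By fold enrichment the filtered family peaks formed a stronger set of 4 and a weaker set of 3. The stronger set ran from 7.66 at COL5 through 7.91 and 8.18 at COL1 to 9.09 at COL2, and the intervals of all 4 overlapped. The weaker set ran from 3.36 between CO and COL1 to 3.79 at COL4 and beside CO, again with overlapping intervals. The interval at COL2 began at 6.37, above the upper bounds of all 3 weaker peaks, which were 5.58, 6.01 and 6.09. The lower bounds at COL5 (5.22) and at the COL1 peaks (5.35 and 5.57) lay below all of these upper bounds. Only the COL2 peak was thus separated from the whole weaker set by non-overlap of separate intervals. Overlap at COL1 and COL5 does not show that these peaks equal the weaker ones, and no interval of a ratio was computed.

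Set against all nuclear 35S:CO peaks, the stronger set lay above the middle and the weaker set near the bottom. The COL2 peak was stronger than 77.8% of them, the COL1 peaks than 73.6% and 72.2%, and the COL5 peak than 71.1%. The COL4 peak and the one beside CO were each stronger than 14.2%, and the one between CO and COL1 than 6.48%. No filtered family peak reached the fold enrichment of 15 that 302 nuclear peaks of the 35S:CO list did.

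**Figure D3:**
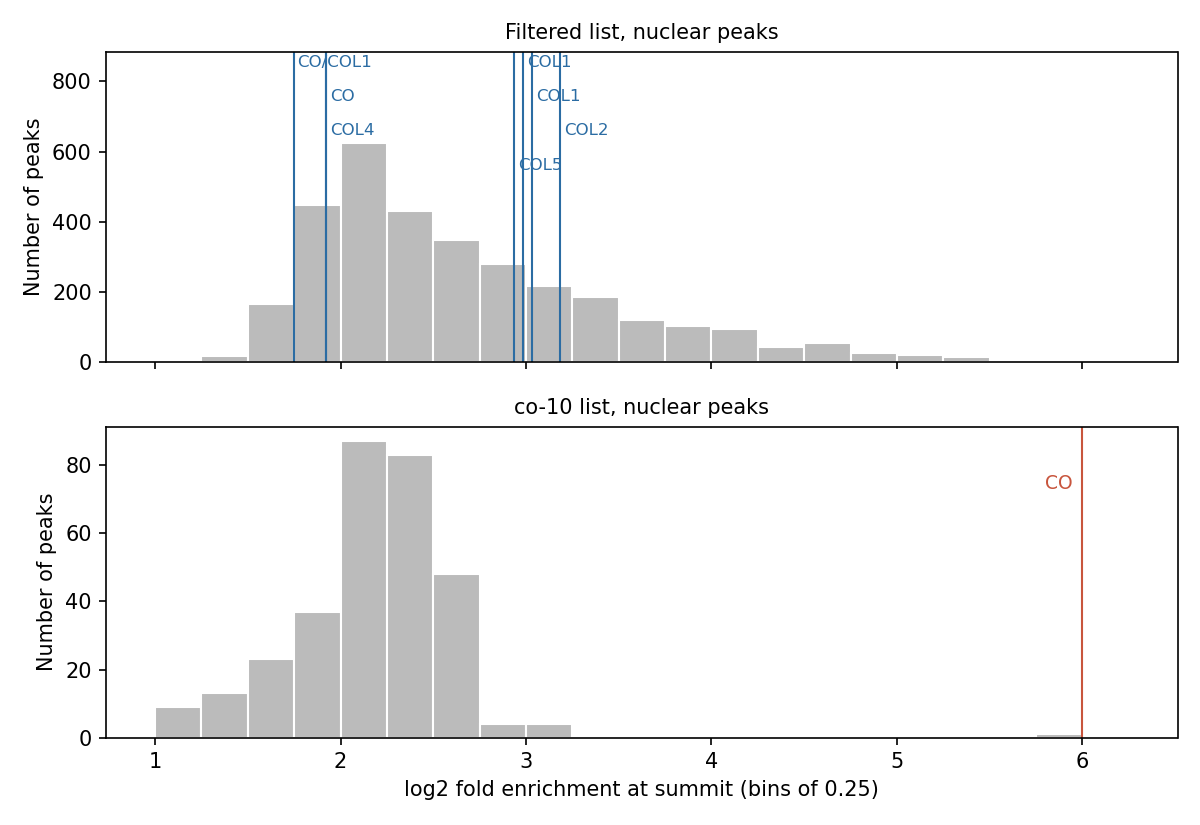
Number of nuclear peaks by log2 fold enrichment at the summit, in bins of 0.25, for the filtered list (upper panel) and the co-10 list (lower panel). Blue lines mark the 7 filtered peaks at CO and the COL genes, between 3.36 and 9.09 before taking logarithms, and the red line marks the co-10 peak at CO at 63.9, far from the next at 9.13.

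Beyond the CO gene, the mutant list held no summit within 3000 bp of the family. The nearest co-10 summit was 3713 bp from COL1 and was the CO peak. It was 307086 bp away for COL3, 592466 bp for COL4, 1067778 bp for COL2 and 1131868 bp for COL5. Since 0.619% of all protein-coding genes had a co-10 summit this near, most genes share this lack.

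Depth decides for which family peaks the lack of a co-10 peak can be read. Each 35S:CO pileup and background was multiplied by 0.534, the background ratio of the overlapping pairs. The scaled pileup was cut down to a whole number of fragments, and the p-value was recomputed. The lowest −log10 p of a co-10 nuclear peak with a background of at most 10 was 4.28. The COL2 peak would have had a −log10 p of 14.2, the COL5 peak 10.9 and the COL1 peaks 10.4 and 11.4. These 4 peaks were strong enough to pass at this scale. The peak beside CO would have had 4.10, the COL4 peak 3.85 and the peak between CO and COL1 2.74. For these 3 a signal of equal strength fell short of the limit at this scale and with this cut. Before the cut, the scaled pileups were 8.01 beside CO, 8.54 at COL4 and 6.94 between CO and COL1. The cut lowered the value at COL4, and the peak beside CO lay close to the limit. Neither of them can be called undetectable in co-10. Of all 3210 nuclear filtered peaks, 76.1% passed by the same calculation, and 55.8% with a scale of 0.356, the ratio of the median backgrounds of the whole nuclear lists, under which the same 4 family peaks passed.

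**Figure D4:**
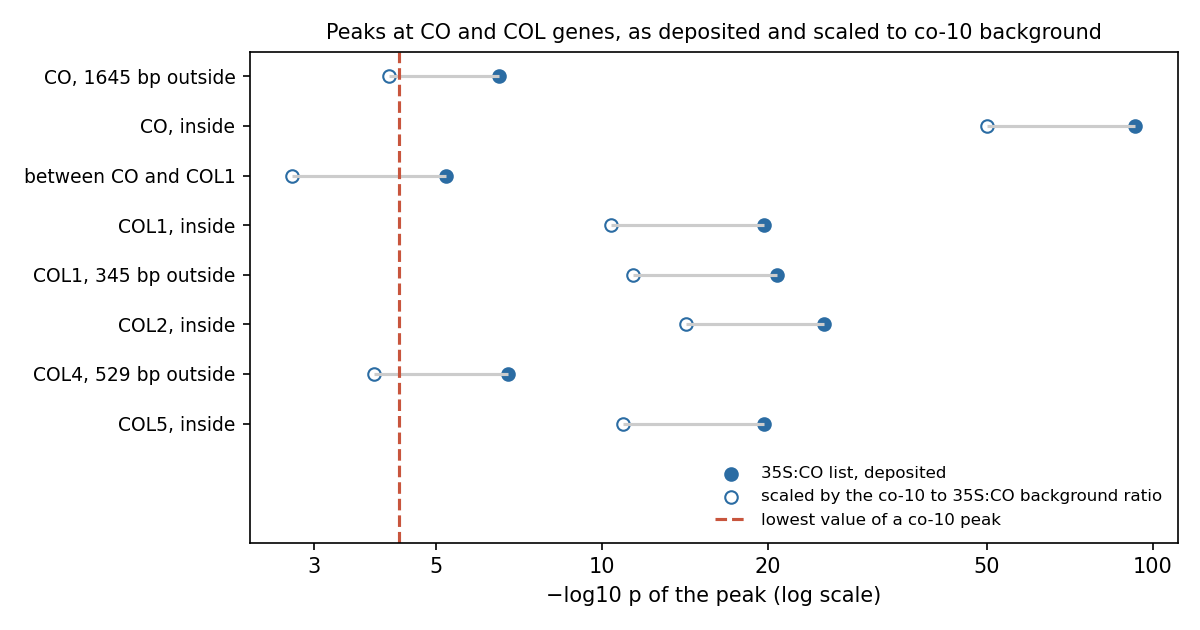
The −log10 p of each 35S:CO peak at CO and the COL genes as deposited (filled) and recomputed with pileup and background multiplied by 0.534 (open), on a log axis, with the lowest −log10 p of a co-10 nuclear peak at 4.28 as a dashed line. Scaled pileups were cut down to whole fragments. The peaks at COL1, COL2, COL5 and inside CO stay to the right of the line, and those at COL4, beside CO and between CO and COL1 move to its left.

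Counted by gene, 5 of the 6 family members had a filtered summit within 3000 bp, against 19.2% of all protein-coding genes. Since CO and COL1 share a summit, these 5 genes rest on 7 peaks and not on independent ones. COL1 had 3 filtered summits, a number that 0.663% of all genes reached, and CO had 2, which 3.82% reached. With a −log10 q of at least 10, COL1, COL2 and COL5 remained, 3 of 6 against 10.7% of all genes; a limit of 5 left the same 3 genes, against 16.2%. The median fold enrichment of the strongest summit per gene was 7.66 for the 5 members and 6.15 for the 5257 protein-coding genes with one. The members were chosen with earlier results known, so these shares and medians are descriptions.

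The other COL genes of the B-box family, COL6 to COL16, had peaks from 4.81 to 46.0 in fold enrichment. A filtered summit lay within 3000 bp of 5 of these 11 genes, against 19.2% of all protein-coding genes. The strongest was at COL11 with a fold enrichment of 46.0, followed by COL12 with 25.6 and COL7 with 18.9. The COL11 summit lay 1072 bp from that gene and 146 bp from BBX30, and the COL12 summit was 2207 bp from that gene, near BBX31. COL16 had a fold enrichment of 7.07, and COL10 had the lowest. COL16 was the one other listed gene with a co-10 summit, at a fold enrichment of 4.21, which lay 2296 bp from its filtered summit; 0.619% of all genes had a co-10 summit this near. The difference between the groups of COL genes was not tested.

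Genes that act with CO in the photoperiod pathway also had many peaks. Of 33 such genes 20 had a filtered summit within 3000 bp, against 19.2% of all protein-coding genes, with a median fold enrichment of 12.6. None had a co-10 summit, which 0.619% of all genes had. Among regulators of CO transcription 6 of 12 had one. These were the CDF repressors CDF2 (29.8), CDF3 (28.7), CDF5 (25.7) and CDF1 (17.6), as well as GI (18.3) and ZTL (7.60), a clock-associated gene and a blue-light F-box gene. The strongest summits lay 2558 bp outside GI and 2829 bp outside ZTL, near the limit of 3000 bp. The 4 FBH activators of CO, FKF1 and LKP2 had none. Of 10 genes that act on CO protein 7 had one, led by SPA3 (24.3), SPA1 (20.9) and the blue-light receptor gene CRY1 (12.6). SPA4 (8.67), the ubiquitin ligase gene COP1 (6.99) and the phytochrome genes PHYB (5.16) and PHYA (3.98) were lower in fold enrichment. Of 8 partner genes 4 had one, with the strongest at BBX31 (58.0) and BBX30 (46.0), whose microproteins bind CO, followed by NF-YB2 (6.27) and the corepressor gene TPL (4.07). The strongest summits lay 2028 bp outside BBX31 and 2472 bp outside TPL. The BBX30 peak is the same peak that was counted above for COL11. The other 4 NF-Y subunit genes listed had none. The CO targets FT (10.5), SOC1 (12.7) and TSF (4.06) all had one. The fold enrichments at COL1, COL2 and COL5 were below those at FT and SOC1. Whether counting error resolves this order was not tested, because overlap of separate intervals cannot settle it. No interval of a ratio was computed for these genes. The intervals of COL1 (5.57 to 11.6), COL2 (6.37 to 12.6) and COL5 (5.22 to 10.9) each overlapped both others. Those were FT (7.65 to 14.0) and SOC1 (9.78 to 16.2).

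**Figure D5:**
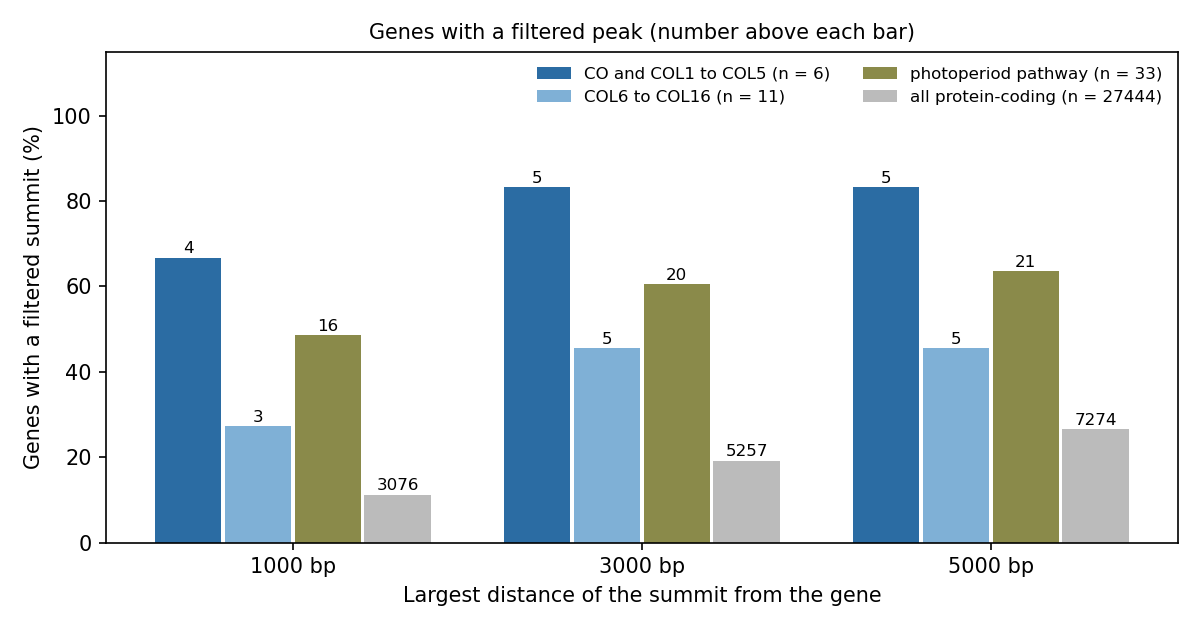
Percentage of genes that have a filtered summit at a distance of at most 1000, 3000 or 5000 bp, for CO and COL1 to COL5, for COL6 to COL16, for the photoperiod pathway list and for all protein-coding genes; the number of genes stands above each bar. At 3000 bp the counts are 5 of 6, 5 of 11, 20 of 33 and 5257 of 27444; at 1000 and 5000 bp the share of all protein-coding genes is 11.2% and 26.5%.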

How the data were processed

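The authors deposited 3 peak lists without headers: 1 for 35S:CO, 1 for co-10 and a filtered one. Per the submitters' processing notes, FastQC, Bowtie, MACS2 and deepTools were used on TAIR10; versions and settings are not given in the sources used here. Per the labels, chromatin was fixed with 1% formaldehyde (20 min) and 1 mM DSG (10 min). The lists as deposited by the authors give fold enrichment as a ratio, the −log10 p-value and −log10 q-value, a score that is the q-value column rescaled, and the summit as another offset in bp. Read totals are unknown from such lists.

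Pileup and background were solved for jointly, with whole pileups up to 4999: 1 was added to each before their ratio was equated with the fold enrichment, and the p-value was equated with the Poisson tail above the pileup. A solution within 0.001 was found for 3306 of 3306 and 379 of 380 peaks. On data simulated from the same equations, the recovery returned the true pileup for 500 of 500 peaks, which checks the solving step only. The simulated pileups were lower relative to background than those of the strongest peaks. The co-10 peak at CO was thus outside the simulated range.

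Genes came from a RefSeq table of TAIR10.1, matched by locus (50 of 50 listed genes). It has no strand, and its coordinates are not printed. Filtered nuclear summits lay in protein-coding genes in 38.2% of cases, and in 59.1% and 58.7% after a shift of 5000 bp down or up. Members, lists and rules (all members named, and the strongest 3 of other lists; further listed genes were named after their values were seen) were chosen with earlier results of these data known. Python 3.11.15, SciPy 1.17.1, pandas 2.3.3 and matplotlib 3.10.9 were used. Motif searches and sequences are not reported, since no genome sequence was used here.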

Additional observations from a re-analysis of the deposited data

How the results depend on the processing

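No paired analysis was possible because the peaks of both replicates stand in 1 pooled list, and leaving out a replicate was not possible either. The motif windows were not run. Of 35 alternatives, 22 left a count or share within 1.5 times the reported one, or the ratio at CO within the counting interval of its reported value (0.185 to 0.307), and 13 moved it. Only the ratio at CO has a direction, and it stayed lower in 35S:CO throughout. Its alternatives reuse the same pileups at CO, so they are no independent check of that direction.

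A −log10 q of at least 5 or of at least 10 left 4 of the 7 filtered peaks, 5 of the 8 peaks of 35S:CO and 3 of the 5 members with a filtered peak, since fewer peaks pass by construction. Within 1000 bp, 3 of the COL6 to COL16 genes had a filtered peak, and the share over all protein-coding genes was 11.2%; it was 10.7% with a −log10 q of at least 10. Within 1000 bp CO was no longer counted, its nearest filtered summit being 1002 bp away. The ratio of 35S:CO to co-10 at CO was 0.239 by fold enrichment, 0.697 by pileup, 0.164 by pileup over background with no 1 added, and, both chosen after the data were seen, 0.372 and 0.581 by pileup scaled with the median background ratio and the median pileup ratio of overlapping peaks. The number of filtered family peaks that pass after scaling was 4 with either background ratio, the second one (0.356) also chosen after the data were seen. Both counts used scaled pileups cut down to whole fragments, and no other rounding was tried.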
